A study of Mus musculus with 15 samples.

Results

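The comparison described here is Has3 deficiency in the injured artery. It set 3 arrays of ligated carotid arteries from Has3-deficient mice (replicates 3, 5 and 6 in the labels) against 4 arrays of ligated carotid arteries from wildtype mice (replicates 1 to 4), which are 7 of the 15 arrays in the study. The other 8 arrays held non-ligated carotid arteries, 4 of each genotype, and entered the fit as well. All mice were female C57Bl/6J of 21 to 22 weeks, the left common carotid artery had been tied off, and tissue was taken 5 days after surgery. The labels do not say how the Has3 allele was made, in which cells it was lost, whether controls were littermates, or whether each array came from a separate animal. The p-values therefore measure the spread between these arrays, which may in part be technical.

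Each value is a log2 expression value relative to the median of the same probe set over all 15 arrays, so 0 is the middle array and no level of a gene is known. All 22180 genes with a probe set of their own were compared, and every difference is Has3-deficient minus wildtype. A difference of 1 log2 unit is 2-fold. Because levels were removed, the presence of smooth muscle or of any other cell type could be followed only through differences between arrays. In whole arteries, fewer cells of a type and less RNA per cell cannot be told apart.

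Hyaluronan is a long sugar chain of the extracellular matrix, made at the cell membrane by the synthases Has1, Has2 and Has3. It surrounds smooth muscle cells that leave their contractile state, divide and migrate after arterial injury, and it is bound by receptors such as Cd44 and by matrix proteins such as versican. Contractile smooth muscle is recognised by its actin, myosin and actin-binding proteins, and these genes are switched on together by serum response factor and its partner myocardin at a short DNA element called the CArG box.

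The Has3 probe set was looked at first, as the targeted gene. It read -0.08, 0.13, 0.58 and 0.00 in the wildtype arrays 1 to 4, and -0.23, -0.01 and 0.10 in the Has3-deficient arrays 3, 5 and 6. The groups overlapped, and the difference was -0.20 ± 0.16 log2 units (± SE; 95% confidence interval -0.54 to 0.13, limma adjusted p = 0.9999). In non-ligated arteries it was 0.09 ± 0.14. Where the probes lie with respect to the mutation is not stated, so the probe set does not check the genotype and "Has3-deficient" follows the labels.

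The gene that best separated the ligated arrays was Mir3108, a microRNA gene on chromosome 8, the chromosome of Has3. Its mature products are shown because no other gene had a lower p, beside those of Mir365-1, another microRNA gene among the 10 largest higher differences. MicroRNAs recognise their targets mainly through the seed (bases 2 to 8, in capitals). The sequences are those of RefSeq for GRCm38.p6, written 5′ to 3′.
miR-3108-5p: gUCUCUAAagcuagacguuccgg
miR-3108-3p: cGUCUAGGucuagagucucaa
miR-365-1-5p: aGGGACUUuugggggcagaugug
miR-365-3p: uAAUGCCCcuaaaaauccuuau
The products of Mir3108 lie at chr8:108936870-108936892 and chr8:108936911-108936931, and those of Mir365-1 at chr16:13453855-13453877 and chr16:13453895-13453916, all on the plus strand. The 4 seeds differ from one another. Whether the probe sets read the precursor or the mature products is not known here.

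Mir3108 read -0.43, -0.34, -0.44 and -0.47 in the wildtype arrays and 0.70, 0.46 and 0.49 in the Has3-deficient arrays. Every Has3-deficient array lay well above every wildtype array. The difference was 0.97 ± 0.15 log2 units (1.96-fold, 95% confidence interval 0.65 to 1.29), with an adjusted p = 0.368 over all genes. Fitted on the 7 ligated arrays alone the adjusted p was 0.0162, and with array weights it was 0.0413. The non-ligated arrays showed the same separation, with 0.00, -0.31, -0.50 and -0.10 in wildtype and 0.88, 1.24, 0.79 and 0.47 in Has3-deficient arteries, a difference of 1.07 ± 0.14. The change of the genotype difference with ligation (the interaction) was -0.10 ± 0.20 (adjusted p = 0.918).

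Between Has3 and Mir3108, in the gene order of RefSeq, lie 17 measured genes. None of the 17 reached an unadjusted p under 0.05 in limma, their differences ran from -0.27 to 0.35, and their median was 0.05. The groups did not overlap for 2 of them, against 6.90% of all genes. Of the 15 measured genes on each side of Has3, 14 had a positive and 16 a negative difference, with a median of -0.01. The lowest p among these 30 belonged to Dpep2, a membrane dipeptidase, which was lower at -0.35 ± 0.15 (unadjusted p = 0.0309); its 2 probe sets gave -0.23 and -0.48. Mir140, which lies 14 genes beyond Has3, followed with 0.35 ± 0.22, and its arrays overlapped.

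**Figure D1:**
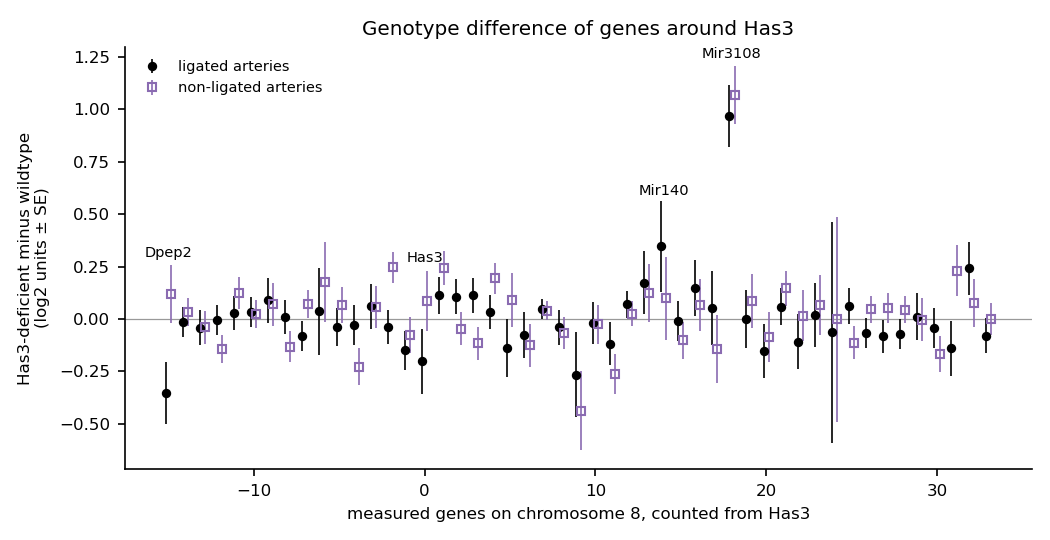
Genotype difference (log2 units ± SE) of the measured genes around Has3, in gene order along chromosome 8, for ligated arteries (filled circles) and non-ligated arteries (open squares). Mir3108 stands at 0.97 and 1.07, while the 17 genes between it and Has3 lie between -0.27 and 0.35 in ligated arteries.

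Across the whole genome, differences between the genotypes in ligated arteries were small for most genes. None of 22180 genes passed an adjusted p under 0.05 (limma with Benjamini-Hochberg adjustment), the lowest being 0.368. At an unadjusted p under 0.05 there were 910 genes (4.10% of all), 407 higher (1.83%) and 503 lower (2.27%), where an even spread of p-values would give 1109. This count depended on the fit. It was 1470 (6.63%) on the 7 ligated arrays alone and 1735 (7.82%) with array weights, both above 1109. With 1 array left out it ran from 702 to 1076. The arrays of the groups did not overlap for 1530 genes (6.90%), 787 higher (3.55%) and 743 lower (3.35%). Array pairs from different genotypes correlated at 0.81 to 0.89 over all genes, pairs within wildtype at 0.82 to 0.89 and pairs within Has3-deficient at 0.84 to 0.89. These are correlations across genes, which are not independent replicates. Values are relative to the median over all 15 arrays, so the response to ligation shared by the ligated arrays enters every pair. The correlations therefore cannot show how close the genotypes are.

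Effect sizes were small for nearly all genes. Differences had an SD of 0.124 and a median of -0.0067 log2 units, 67.9% lay within 0.1 of 0, and the middle 95% ran from -0.22 to 0.26. A positive difference was found for 47.1% of genes. The median standard error was 0.098, and the median SD within a group was 0.109 in wildtype and 0.089 in Has3-deficient arrays. For 21788 genes (98.2%) the 95% confidence interval of the difference lay within 1 log2 unit of 0, and for 19316 (87.1%) within 0.5. These intervals are not adjusted for the number of genes, and genes near background could not be set apart from these counts. For the remaining 392 genes a 2-fold difference lay inside the interval, and these included 15 of 18 measured fat genes and 13 of 16 genes of neurons and chromaffin cells.

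**Figure D2:**
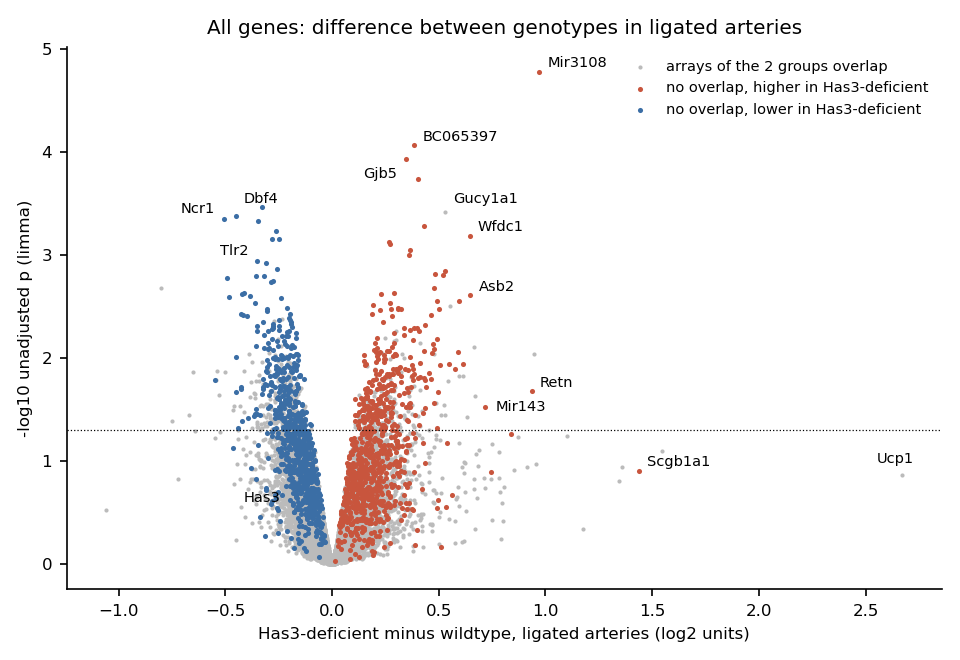
Difference between genotypes in ligated arteries (x axis, log2 units) against -log10 of the unadjusted limma p (y axis) for 22180 genes, coloured where the 4 wildtype and 3 Has3-deficient arrays do not overlap; the dotted line marks the unadjusted threshold of 0.05. Mir3108 lies highest, and Ucp1, with the largest difference (2.67), has a large error and overlapping arrays.

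Only 8 genes differed by more than 2-fold, and apart from Scgb1a1 their arrays overlapped. The largest was Ucp1, the uncoupling protein of brown fat, with -3.18, -2.93, 0.00 and 1.27 in wildtype and -0.09, 2.22 and 2.25 in Has3-deficient arrays. Its difference of 2.67 ± 1.69 was within the spread of the arrays (unadjusted p = 0.137). The fat genes Cox8b, Pck1, Cidea and Thrsp followed the same split of arrays, with differences of 1.10 to 1.55. Dbh, which makes noradrenaline, was at 1.18 ± 1.53 and Gm3893, a predicted gene, at -1.06 ± 0.98. Scgb1a1, a secretoglobin of airway epithelium, read between -0.02 and 0.03 in wildtype arrays, 0.04 in the Has3-deficient array 3 and 2.16 and 2.11 in arrays 5 and 6. Its groups therefore did not overlap by a margin set by array 3, and its difference was 1.44 ± 0.88.

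Genes of contractile smooth muscle had the highest median difference among the 15 lists of gene function, except when wildtype arrays 1 and 2 were left out. The lists were chosen with earlier results of these data known, so this rank is a description only. Of 31 measured members of the contractile list 29 had a positive difference, 11 of them reached an unadjusted p under 0.05 and all 11 were higher, and none passed adjustment over all genes. The median difference was 0.26 log2 units, against -0.0067 over all genes, where 1.83% were higher at that p. The list's mean in each array was -0.71, -0.68, -0.71 and -0.33 in the wildtype and -0.46, -0.31 and -0.30 in the Has3-deficient arrays. Wildtype arrays 1 to 3 lay below every Has3-deficient array, and wildtype array 4 lay within the Has3-deficient range. In non-ligated arteries the list's means were 0.32 in wildtype and 0.30 in Has3-deficient mice, so ligated arteries of both genotypes stood below non-ligated ones.

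The strongest members were regulators and components of the contractile filaments. Myl9, the regulatory light chain of smooth muscle myosin, read -0.78, -0.75, -0.78 and -0.40 in wildtype and -0.43, -0.32 and -0.37 in Has3-deficient arrays, a difference of 0.30 ± 0.09 (unadjusted p = 0.00540). Ppp1r14a, an inhibitor of myosin phosphatase, read -1.57, -1.47, -1.80 and -0.89 against -1.11, -0.51 and -0.68, a difference of 0.66 ± 0.21. Cnn1, calponin, read -0.99, -1.06, -1.30 and -0.50 against -0.73, -0.35 and -0.37, a difference of 0.48 ± 0.16. In each of these 3 genes wildtype array 4 overlapped the Has3-deficient arrays, and the other 3 wildtype arrays did not.

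Lmod1, leiomodin, which starts actin filaments, read -1.23, -1.10, -1.16 and -0.80 in wildtype and -0.59, -0.39 and -0.60 in Has3-deficient arrays. It was among the 3 members whose groups did not overlap, with Mylk (myosin light chain kinase) and Pdlim7, all higher, against 3.55% of all genes, and its difference was 0.55 ± 0.19. The other members named by their p were Synpo2 at 0.53 ± 0.23, Tpm2 at 0.41 ± 0.16, Myh11, the smooth muscle myosin heavy chain, at 0.40 ± 0.17, and Tagln at 0.37 ± 0.13. Acta2, smooth muscle actin, named after its value was seen, differed by 0.16 ± 0.07. Des (desmin) at -0.17 ± 0.15 and Tln1 (talin) at -0.01 ± 0.13 were the members with a negative difference. Wildtype array 4 was the highest wildtype array for 28 of the 31 genes, and for 22 of them the other 3 wildtype arrays lay below every Has3-deficient array, against 6.18% of all genes. Array 4 was set aside here after its values were seen.

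**Figure D3:**
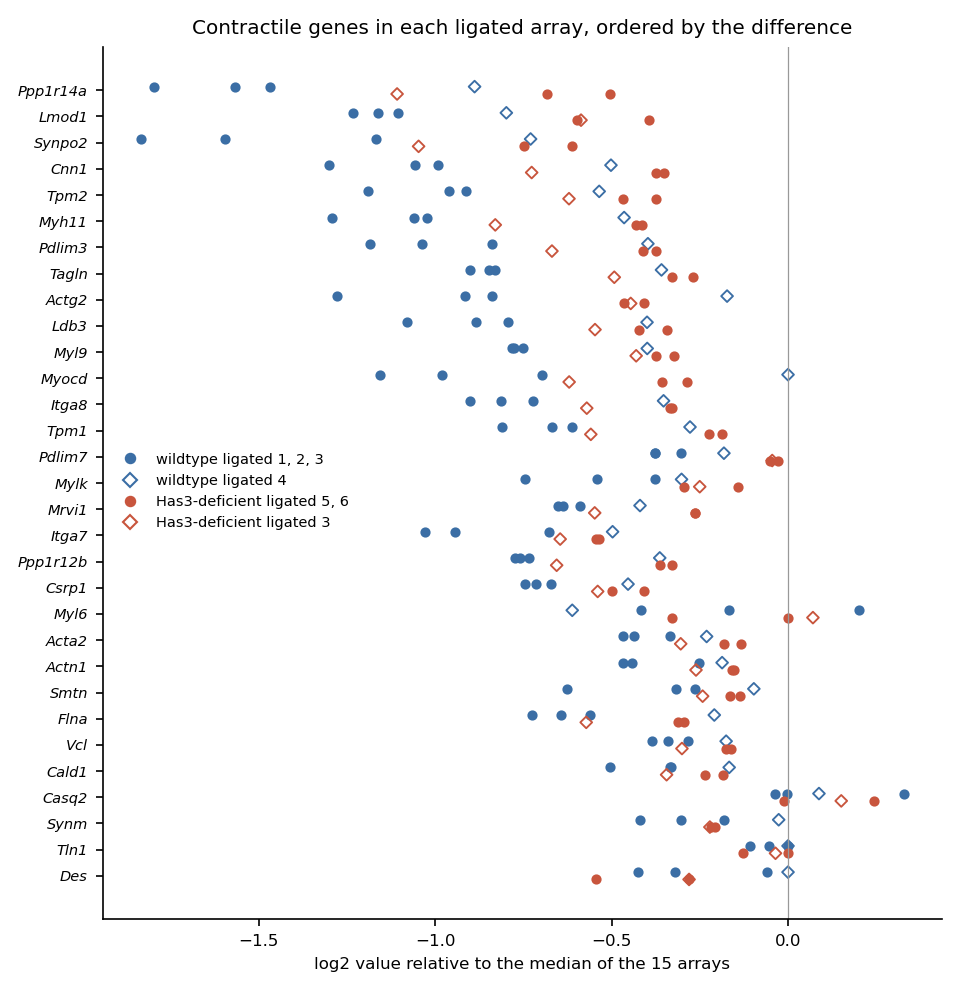
Values of the 31 contractile genes in each ligated array (log2 relative to the median of the 15 arrays), ordered by the difference, with wildtype array 4 and Has3-deficient array 3 as open diamonds. Wildtype arrays 1 to 3 lie left of the Has3-deficient arrays for 22 genes, while wildtype array 4 lies among or beyond them for most.

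The count of contractile genes depended on the arrays and the scaling. After quantile normalization the median was 0.13, with 26 positive and 1 at an unadjusted p under 0.05. Leaving out wildtype array 1, 2 or 3 or Has3-deficient array 6 gave 6 such genes each, leaving out Has3-deficient array 5 gave 4, and leaving out wildtype array 4 gave 18, where 4.85% of all genes reached that p. The groups of 22 members then did not overlap, all higher, against 6.18% of all genes. Without Has3-deficient array 3 the groups of 15 members did not overlap, all higher, against 8.56% of all genes. The change of the genotype difference with ligation had a median of 0.29 over the list, with 7 members at an unadjusted p under 0.05, against 8.12% of all genes, and none past adjustment. In non-ligated arteries the median genotype difference was -0.01, with 15 of 31 positive.

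The CArG box, where serum response factor binds, was looked for in the promoters of these genes. The pattern searched was CCWWWWWWGG (W is A or T), which reads the same on both strands. Only exact matches within RefSeq promoters of GRCm38.p6 (250 bases before to 50 after each gene start) were counted. Boxes with another base or outside this window were not seen, so a gene without a match may still have a box. Over all 32851 windows 1.63% had a match, and over measured genes with a promoter 1.67% did (283 of 16990). A match was in 4 of 26 contractile genes with a promoter (15.4%: Ldb3, Myl6, Myl9 and Vcl). It was also in the window of Asb2, the only one of 3 genes among the 10 largest higher differences that have a promoter in the table, and in none of 7 such genes among the 10 largest lower differences. Stretches around the box, in capitals, are shown for the member with the lowest p, for another member of the list and for Asb2.
Myl9: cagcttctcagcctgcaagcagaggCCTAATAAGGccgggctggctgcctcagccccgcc
Ldb3: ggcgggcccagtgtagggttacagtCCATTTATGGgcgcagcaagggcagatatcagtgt
Asb2: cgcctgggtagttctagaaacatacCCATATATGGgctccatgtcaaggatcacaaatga
They lie at chr2:156775278-156775337 on the plus strand, at chr14:34588682-34588741 on the minus strand and at chr12:103356031-103356090 on the minus strand. Of the 4 list members with a box, Ldb3 differed by 0.35 ± 0.20, Myl9 by 0.30, Myl6 by 0.16 ± 0.20 and Vcl by 0.08 ± 0.09, while differences over the whole list ran from -0.17 to 0.66. A match is a description of the sequence and shows no binding.

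The lists closest in function to the contractile apparatus had positive medians as well. Gucy1a1, a subunit of soluble guanylate cyclase, the nitric oxide receptor of smooth muscle, read -1.38, -1.36, -1.27 and -0.87 in wildtype and -0.91, -0.56 and -0.60 in Has3-deficient arrays. Only wildtype array 4 and Has3-deficient array 3 overlapped, and the difference was 0.53 ± 0.11 (unadjusted p = 0.000378, adjusted p = 0.9999). In non-ligated arteries it was -0.25 ± 0.10, and the interaction was 0.78 (adjusted p = 0.440). Its partner subunit Gucy1b1 differed by 0.48 ± 0.20, and Npr1, the receptor of natriuretic peptides, by 0.30 ± 0.17. Of 28 genes of nitric oxide and cyclic nucleotide signalling 22 had a positive difference, against 47.1% of all genes, and their median was 0.12. At an unadjusted p under 0.05 were 2 of the 28, both higher, against 1.83% of all genes.

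Among regulators of smooth muscle identity 16 of 20 had a positive difference, with a median of 0.05. Hey2, a transcription factor downstream of Notch, differed by 0.36 ± 0.14 and its groups did not overlap. Srf, serum response factor itself, read -0.24, -0.18, -0.39 and -0.06 against 0.09, 0.03 and 0.00, also without overlap, and differed by 0.26 ± 0.16. Myocd (myocardin) differed by 0.29 ± 0.26, within the spread of its arrays. Of 25 genes of calcium and potassium handling 20 had a positive difference, with a median of 0.08 that was -0.0037 after quantile normalization. Slc8a1, the sodium-calcium exchanger, led them by p at 0.25 ± 0.10.

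Of the 10 largest higher differences without overlap, 5 are described next. Carmn, a long non-coding RNA of smooth muscle, read -1.22, -1.29, -1.18 and -0.98 in wildtype and -0.71, -0.38 and -0.62 in Has3-deficient arrays, a difference of 0.59 ± 0.16. Mir143, the smooth muscle microRNA gene that lies in the Carmn transcript, differed by 0.72 ± 0.30. Asb2, which directs filamins to breakdown in muscle cells, differed by 0.65 ± 0.17, and Wfdc1, a secreted protein with a protease inhibitor fold, by 0.64 ± 0.15. Mir365-1 read -0.84, -1.14, -0.86 and -0.59 against -0.27, -0.28 and -0.19, a difference of 0.61 ± 0.21. For all 5 genes every Has3-deficient array lay above every wildtype array, against 3.55% of all genes, but absence of overlap was part of the rule that picked them.

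Markers of fat also varied between the arrays. All 18 measured genes of white and brown fat had a positive difference, with a median of 0.64, and 1 reached an unadjusted p under 0.05 (Retn, resistin, 0.94 ± 0.36), against 4.10% of all genes. On the 7 ligated arrays alone 11 of the 18 did so, against 6.63% of all genes, and with array weights 5, against 7.82%; without wildtype array 4 it was 5, against 4.85%, and none passed adjustment. Their mean was -1.21, -1.14, -0.51 and 0.06 in wildtype and -0.40, 0.39 and 0.33 in Has3-deficient arrays. Wildtype arrays 1 and 2 were low, wildtype array 4 stood above Has3-deficient array 3, and wildtype array 4 was the highest wildtype array for 18 of 18 genes. Adipoq (adiponectin) and Retn had groups without overlap, both higher, against 3.55% of all genes. In non-ligated arteries the fat mean ran from -0.29 to 1.91 in wildtype and from -0.42 to 1.81 in Has3-deficient mice, with a median genotype difference of -0.03.

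**Figure D4:**
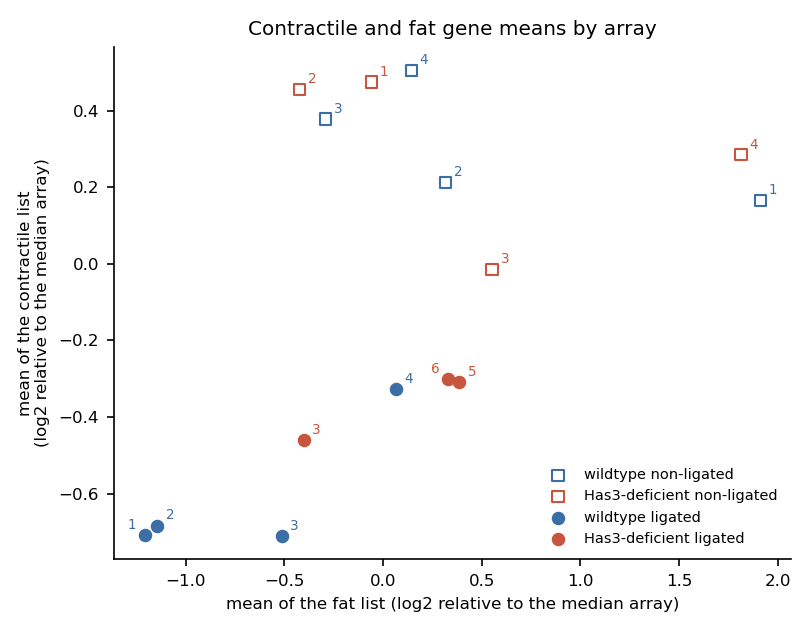
Mean of the 31 contractile genes (y axis) against the mean of the 18 fat genes (x axis) in each of the 15 arrays, both in log2 units relative to the median array, numbered by replicate. Among ligated arrays, wildtype 1 to 3 are low in both means, and wildtype 4 lies beside the Has3-deficient arrays 5 and 6. Among non-ligated arrays, the highest fat means (1.91 in wildtype 1 and 1.81 in Has3-deficient 4) stand at contractile means of 0.17 and 0.28. Non-ligated contractile means run from -0.01 to 0.51.

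Without wildtype arrays 1 and 2, the lowest in fat genes, the contractile median was 0.14 with 27 of 31 positive and none at an unadjusted p under 0.05. The fat median was still 0.25 there, with 16 of 18 genes positive, so leaving out these arrays did not level fat between the groups. The part of fat in the contractile difference was not tested. Myl9, Cnn1, Lmod1 and Carmn had differences of 0.21, 0.42, 0.45 and 0.51 in that setting, and Synpo2 and Myh11 were at 0.15 and 0.18.

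In the hyaluronan system no gene passed adjustment. Of 32 measured genes 9 had a positive and 23 a negative difference, the median was -0.07 (-0.03 after quantile normalization), and 1 gene, lower, had an unadjusted p under 0.05, against 2.27% of all genes. The confidence interval lay within 1 log2 unit of 0 for 32 of 32 (98.2% of all genes) and within 0.5 for 24 of 32 (87.1% of all genes). The other synthases gave small negative differences. Has2, the synthase required for development, read 0.94, 1.26, 0.70 and 1.17 in wildtype and 1.03, 0.61 and 0.99 in Has3-deficient arrays, a difference of -0.14 ± 0.20 (95% confidence interval -0.56 to 0.29). Has1 read 0.02, 1.02, 0.00 and 0.87 against 0.24, 0.59 and 0.28, a difference of -0.10 ± 0.23, with wildtype arrays 2 and 4 high. Without wildtype array 2 the Has1 difference was 0.08, and without wildtype array 4 it was 0.03.

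Among receptors Tlr2, a toll-like receptor that hyaluronan fragments can engage, was the member with the lowest p. It read 1.68, 1.63, 1.53 and 1.39 in wildtype and 1.27, 1.22 and 1.13 in Has3-deficient arrays, a difference of -0.35 ± 0.09 (unadjusted p = 0.00114, adjusted p = 0.9999) without overlap. In non-ligated arteries it differed by -0.22 ± 0.08. After quantile normalization the ligated difference was -0.18. Cd44, the main hyaluronan receptor, differed by -0.17 ± 0.14 and Tlr4 by -0.15 ± 0.10, and both overlapped.

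Of the binding proteins Hapln3, a link protein, read 0.03, 0.18, 0.00 and 0.05 against -0.07, -0.11 and 0.00, with groups that did not overlap by a narrow margin, and differed by -0.13 ± 0.09. Acan, the proteoglycan aggrecan, differed by -0.30 ± 0.22. Of enzymes, the hyaluronidase Hyal2 differed by 0.17 ± 0.09 and Ugdh, which makes a sugar precursor of hyaluronan, by -0.14 ± 0.11. Tlr2 and Hapln3 were the 2 members without overlap, both lower, against 3.35% of all genes.

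The lists of inflammation, immune cells, cell division and matrix described next had median differences between -0.10 and 0.04, and most of these medians turned sign in some setting, as given beside them. Of 23 macrophage genes 5 had a positive difference and the median was -0.10, which was 0.02 after quantile normalization and ran from -0.17 to -0.04 with 1 array left out (-0.17 without Has3-deficient array 3). Csf1r, the receptor that macrophages need to survive, differed by -0.20 ± 0.14 and the scavenger receptor Msr1 by -0.27 ± 0.19. Clec5a, a myeloid receptor, read 3.16, 3.30, 2.68 and 2.69 in wildtype and 2.63, 2.48 and 2.41 in Has3-deficient arrays, a difference of -0.45 ± 0.17. Its groups did not overlap, with wildtype arrays 3 and 4 just above Has3-deficient array 3.

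Of 29 chemokine, cytokine and adhesion genes 8 had a positive difference, with a median of -0.09 that was 0.0021 after quantile normalization, 0.04 without wildtype arrays 1 and 2, -0.20 without Has3-deficient array 3 and -0.02 without Has3-deficient array 6. Il6, the cytokine interleukin 6, read 2.58, 3.37, 2.25 and 2.26 against 1.99, 2.20 and 2.33 and differed by -0.44 ± 0.20, with overlap. Wildtype array 2 was the highest; without it the difference was -0.19, and without wildtype arrays 1 and 2 it was -0.08. Neutrophil genes had a median of 0.04 with 10 of 19 positive, but -0.10 without wildtype array 4 and -0.08 without Has3-deficient array 3, and 0.13 without wildtype array 1. The T and NK cell list had 4 of 16 positive and a median of -0.07. Its Ncr1, a receptor of NK cells, read 0.72, 0.24, 0.62 and 0.49 against -0.10, 0.13 and 0.00 and differed by -0.51 ± 0.11 without overlap (unadjusted p = 0.000446). Interferon response genes had a median of -0.03 that was 0.04 after quantile normalization and, with 1 array left out, ran from -0.10 to 0.15, the latter without wildtype array 3. Their mean was 1.204 in wildtype array 3 against 0.428 to 0.444 in the other wildtype arrays.

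Of 27 mitosis genes 7 had a positive difference, with a median of -0.06, and of 29 DNA replication genes 9, with a median of -0.04; both medians were 0.02 after quantile normalization. Without Has3-deficient array 5 the mitosis median was 0.01, and without wildtype array 4 it was -0.13. Dbf4, which activates the kinase that fires replication origins, read 1.22, 1.22, 0.88 and 0.99 in wildtype and 0.68, 0.51 and 0.69 in Has3-deficient arrays. The groups did not overlap and the difference was -0.45 ± 0.10 (unadjusted p = 0.000416). Rrm2, a subunit of ribonucleotide reductase, differed by -0.16 ± 0.06, and its 2 probe sets gave -0.28 and -0.03. The mitosis genes Ube2c and Kif11 differed by -0.27 ± 0.14 and -0.24 ± 0.15, and both overlapped.

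Genes of matrix and fibrillar collagens split evenly, 12 of 24 positive, with a median of -0.0064 that ran from -0.04 to 0.03 with 1 array left out and was 0.05 after quantile normalization. Tnc, tenascin C, a matrix glycoprotein of injured arteries, read 2.62, 2.42, 2.21 and 2.44 against 2.06, 2.00 and 2.10 and differed by -0.37 ± 0.16 without overlap. Thbs1, thrombospondin 1, differed by -0.33 ± 0.23 and by 0.03 without wildtype arrays 1 and 2. Of 24 matrix proteases and inhibitors 6 had a positive difference, with a median of -0.03 that was 0.04 after quantile normalization, 0.01 without Has3-deficient array 6 and -0.07 without wildtype array 3. Among growth factors and receptors 18 of 34 were positive; Tgfb3 (0.36 ± 0.15) had groups without overlap, and Pdgfd (0.36 ± 0.15) and Hgf (-0.32 ± 0.18) overlapped.

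**Figure D5:**
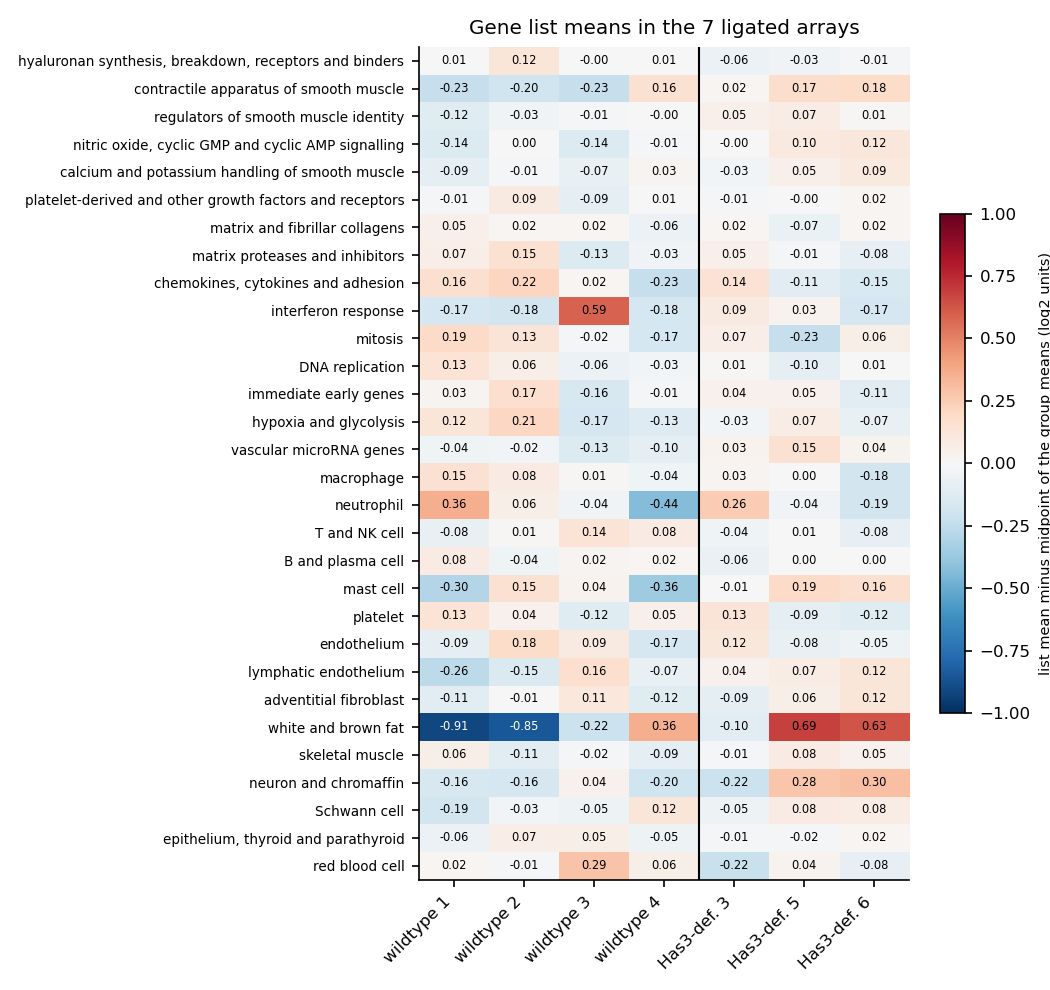
Mean of each gene list in the 7 ligated arrays, as its distance in log2 units from the midpoint of the 2 group means (red above, blue below). The fat list spans the widest range across arrays, the contractile list is low in wildtype arrays 1 to 3, and the interferon list is high in wildtype array 3 at 0.59.

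Outside these lists, the remaining genes among the 10 lowest p-values had small differences with tight groups. BC065397 read -0.42, -0.59, -0.50 and -0.34 in wildtype and -0.02, -0.06 and -0.15 in Has3-deficient arrays, a difference of 0.38 ± 0.07. Gjb5, a connexin of gap junctions, differed by 0.34 ± 0.06, Svs5, a seminal vesicle protein, by 0.40 ± 0.08, and Gstp1, a glutathione transferase, by 0.43 ± 0.10. Osbpl8, an oxysterol-binding protein, differed by -0.35 ± 0.08 and Radx, which acts at replication forks, by -0.26 ± 0.06. The groups did not overlap for any of these 6 genes, against 6.90% of all genes, but they were picked by low p in the same arrays. Their adjusted p-values in limma were 0.866 or higher.

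Some of the other large differences without overlap were set by 1 or 2 arrays. Scgb1b27, a secretoglobin, differed by 0.84 ± 0.40, with Has3-deficient array 5 at 1.58 and arrays 3 and 6 at 0.48 and 0.37. Orm1, an acute-phase protein, differed by 0.75 ± 0.46, with wildtype array 4 at -0.03 and the Has3-deficient arrays at 0.00. Among lower genes Defa40, a defensin, differed by -0.55 ± 0.20 with Has3-deficient array 5 at -0.99, and Slc4a1, the anion exchanger of red blood cells, by -0.46 ± 0.24. Mir344d-2 (-0.49 ± 0.13), Cgn (cingulin of tight junctions, -0.48 ± 0.13), Zfp984 (-0.45 ± 0.15), Ssxb8 (-0.44 ± 0.20) and Slc13a3, a dicarboxylate transporter (-0.43 ± 0.16), make up the 10 largest lower genes together with Ncr1, Dbf4 and Clec5a. Of skeletal muscle genes 14 of 23 were positive, among them Casq1 at 0.58 ± 0.20 and Pvalb at 0.49 ± 0.13, while the list's median was 0.02.

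Genotype in ligated and in non-ligated arteries shares no array, but the labels do not say whether both arteries of a mouse were used, and the wildtype groups carry the same replicate numbers. The 2 comparisons are therefore set side by side and not taken as independent, and the interaction was fitted without pairing. Over all genes the differences correlated at r = 0.05 (Spearman's rho = 0.02; across 22180 genes, which are not independent replicates). Differences in non-ligated arteries had the wider spread, an SD of 0.181, and 1379 genes (6.22%) had groups without overlap there. That share is not comparable with the 6.90% in ligated arteries. It sets 4 arrays against 4 in place of 3 against 4, and more arrays overlap more often by chance. At an unadjusted p under 0.05 in limma were 2979 genes (13.4%) in non-ligated arteries, against 4.10% in ligated ones. In both states 85 genes had groups without overlap, which is 5.56% of those in ligated and 6.16% of those in non-ligated arteries. These shares are near those of all genes, 6.22% in non-ligated and 6.90% in ligated arteries. Of these 85 genes the direction was shared by 52, 12 higher and 40 lower in Has3-deficient arteries, and opposed by 33. The split by direction of all 1379 genes is not given here, so these counts have no background. Of the 52 genes that shared a direction, only Mir3108 and the zinc finger gene Zfp984 exceeded 0.4 log2 units in both states, Zfp984 with -0.45 in ligated and -0.41 in non-ligated arteries. Counting genes with overlapping arrays as well, 20 exceeded 0.4 in both states in 1 direction, among them Scgb1a1 (1.44 and 1.24), Scgb1b27 (0.84 and 0.87) and Defa40 (-0.55 and -0.44). How many genes did so in opposite directions is not given here. Scgb1a1 read -0.14, 0.08, 0.22 and 4.52 in the non-ligated Has3-deficient arrays 1 to 4, so array 4 set its difference of 1.24 ± 0.81. Scgb1b27 read 1.71, -0.16, 1.40 and 0.00 in the same arrays, a difference of 0.87 ± 0.37. For the difference between the 2 states no gene passed adjustment (limma, lowest adjusted p = 0.440), and 1802 genes (8.12%) had an unadjusted p under 0.05.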

How the data were processed

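RNA of 15 carotid arteries was hybridised to arrays, 100 ng each. The deposited table gives log2 values of 33793 probe sets, each centred on its median over the arrays before it was deposited, as the values show; the log base was taken from the size of the values, and neither the normalization nor the software or build is named in these sources. Array medians lay close to 0, and the number of arrays limits the precision. Of the probe sets, 23521 carried 1 gene symbol, 1814 several and 8458 none in the annotation used; the mean per symbol gave 22180 genes, 1082 of them from several probe sets.

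The 4 groups were fitted together with limma 3.58.1 (lmFit and eBayes, R 4.3.3; 11 residual and 2.69 prior degrees of freedom), with Benjamini-Hochberg adjustment over all genes and a threshold of 0.05. The fit was tested on simulated data. Fold values are 2 to the power of the size of the log2 difference. Lists were described by counts and medians without a set test.

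The members and the 30 lists (574 of 641 genes measured, 9 renamed to current symbols) were chosen with earlier results of these data known, and Mir3108, known from them, is in the microRNA list. Genes were named by rule: the 3 synthases, the 10 lowest p-values, the 10 largest differences in each direction among genes without overlap (predicted genes, small nuclear, nucleolar and ribosomal RNAs and receptor segments passed over), the 3 lowest p-values per list (8 in the hyaluronan and contractile lists) and 3 beside Has3. Acta2, Des, Tln1, Mylk, Pdlim7, Myocd, Ldb3, Myl6, Vcl, Adipoq and the genes past 2-fold were named after their values were seen. Alternatives were quantile normalization, a common median, the ligated arrays alone, array weights, a robust prior, the most variable probe set, probe sets in place of genes and each array left out in turn; leaving out wildtype ligated arrays 1 and 2 together was added after seeing the data.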

Additional observations from a re-analysis of the deposited data

Results flagged for a closer look

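Of 114 genes and list means tested for an array standing apart from the other 3 wildtype ligated arrays (Dixon's test), 8 did so; chance gives about 1 in 20, and groups of 3 were not tested. Wildtype array 4 stood above the others for Myl9 (-0.40, the others at -0.75 or lower), for Tagln (-0.36, the others at -0.83 or lower) and for the mean of the contractile list (-0.33, the others at -0.68 or lower). Wildtype array 2 stood above the others for Cgn (0.48, the next at 0.25), for Pdgfd (-0.62, the next at -0.92) and for the mean of the hyaluronan list (0.43, the next at 0.32). Wildtype array 3 stood above the others for the mean of the interferon list (1.20, the next at 0.44) and of the neuron and chromaffin list (0.061, the next at -0.14).

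BC065397 differed in opposite directions in the 2 artery states: every Has3-deficient array lay above every wildtype array after ligation, and below without it. Its difference was 0.38 ± 0.07 in ligated and -0.13 ± 0.06 in non-ligated arteries, and the interaction was 0.52 (limma adjusted p = 0.440 over all genes).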

How the results depend on the processing

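In the ligated comparison no gene passed adjustment in any setting run except Mir3108, which gave a count of 1 on the 7 ligated arrays alone and 1 with array weights. The genes at an unadjusted p under 0.05 numbered 1470 on the ligated arrays, 1735 with array weights and 1551 with probe sets in place of genes; with 1 array left out they numbered 702 to 1076. Among probe sets 2332 of 33793 had groups without overlap, 6.90% as among genes. Genes without overlap numbered 2232 to 3865 with 1 array left out and 4757 without wildtype arrays 1 and 2, where fewer arrays are compared. Of the list medians, that of calcium and potassium handling was -0.003746 and that of genes beside Has3 0.0152 after quantile normalization; without wildtype arrays 1 and 2, medians were 0.154 for hypoxia and glycolysis, 0.0679 for vascular microRNA genes, -0.0583 for Schwann cells, -0.245 for red blood cells (3 genes) and 0.0227 for genes beside Has3. With 1 array left out, medians ran from -0.0388 to 0.0992 for Schwann cells, -0.181 to 0.0580 for red blood cells and -0.0145 to 0.0153 for genes beside Has3. Of 84 genes in 14 settings, 2 turned direction: Has1 (-0.263 to 0.0755 with 1 array left out; 0.0755 and 0.0254 without wildtype array 2 or 4) and Thbs1 (0.0340 without wildtype arrays 1 and 2). The causes were not tested. No paired analysis was possible because the ligated groups share only 1 replicate number. Levels and signal over background were removed by the centring, so genes near background could not be set apart.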

Other observations

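Adventitial fibroblast genes gave a different picture in the 2 artery states. In ligated arteries 12 of 16 had a positive genotype difference, with a median of 0.04. In non-ligated arteries 0 of 16 were positive and the median was -0.26, and 9 of the 16 interactions had an unadjusted p under 0.05 in limma, against 8.12% of all genes, with none past adjustment. With wildtype ligated array 4 left out the ligated median was -0.01, and with Has3-deficient array 3 left out it was 0.14. Genes of neurons and chromaffin cells had a median of 0.12 in ligated and 1.17 in non-ligated arteries. In non-ligated arteries their list mean ran from -0.25 to 2.08 over the wildtype arrays and from -0.18 to 3.84 over the Has3-deficient arrays.

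The lowest p-values among probe sets with no listed gene belonged to 2 probe sets of neighbouring numbers. Over all 33793 probe sets, 17285521 had the lowest unadjusted p in limma (4.87e-06), below that of Mir3108 (1.87e-05). Probe set 17285521 lay between -0.03 and 0.04 in the wildtype ligated arrays and read 0.67, 0.73 and 0.59 in the Has3-deficient ones, a difference of 0.66 ± 0.09 (limma adjusted p = 0.165 over all probe sets). Probe set 17285523 read -0.07, 0.07, 0.00 and -0.18 against 0.68, 0.98 and 1.10, a difference of 0.97 ± 0.16 (adjusted p = 0.475). In non-ligated arteries they differed by 0.04 and -0.07.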
